A study of Rattus norvegicus with 12 samples.

Results

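The nuclear genome supplies most of the protein subunits of the mitochondrial respiratory chain and of ATP synthase. The genes described here were taken by name: every non-control probe whose gene name in the array files began with Nduf followed by a, b, c, s or v and a digit, with Uqcr, with Cox4 to Cox8 or with Atp5, or was Sdha, Sdhb, Sdhc or Sdhd, with the Ndufaf assembly factors left out. The rule took 84 of the 26190 gene names on the array and 102 of its 30367 non-control probes. By textbook assignment, or that of the subunit they are named for, 37 of these genes were counted with complex I and 4 with complex II. Complex III had 7, complex IV 16 and complex V 16. The other 4 only share a name: Cox4nb is a gene of the endoplasmic reticulum membrane complex, Cox6c-ps1 is a pseudogene, and Atp5s and Atp5sl are related to factor B and to assembly. Ndufa4 was counted with complex IV, where the protein is now placed, although it is named for complex I. Ndufa10l1, Ndufa7l and Ndufb4l1 were counted with complex I, Cox7a2l with complex IV and Atp5hl1 with complex V, after the subunits they are named for.

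The tissue was prefrontal cortex, taken at postnatal day 15 from 12 Sprague-Dawley rats, all female, in 3 groups of 4 animals. Control pups were born to dams given 2 saline injections on gestational day 15 and received saline on postnatal day 14. Betamethasone pups were born to dams given 2 injections of 0.4 mg/kg of the synthetic glucocorticoid betamethasone on the same day, and also received saline. Pups of the third group had the same prenatal betamethasone and received 35 mg/kg of ketamine, an NMDA receptor antagonist, on postnatal day 14. Litters were culled to 4 females, the labels tie no animal to a litter, and they do not say which animals had infantile spasms, so the p-values measure the spread between these animals only. In the labels 1 field gives another age for the animals than the protocol does.

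Complex I (NADH dehydrogenase) and complex II (succinate dehydrogenase) pass electrons to ubiquinone, complex III passes them from there to cytochrome c, and complex IV (cytochrome c oxidase) hands them to oxygen. Complexes I, III and IV pump protons across the inner mitochondrial membrane, and complex V (ATP synthase) makes ATP as the protons return. Neurons draw most of their ATP from this chain, which grows strongly in the postnatal cortex.

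All member probes were 60-base oligonucleotides, and each level below is the log2 intensity of 1 such probe, so levels of different genes are not comparable. The probes of members with small p-values for betamethasone against control, and of the member lowest on 1 array, are shown first, because those results rest on a single probe each. Positions are those in the array files, on rat build rn4, and the probe of Atp5e had none there. The Atp5d probe lay at chr7:11073061-11073120 (minus strand), the Atp5j2 probe at chr12:9738288-9738347 (plus strand), and the Ndufa4 probe at chr4:37126182-37126241 and the Ndufs1 probe at chr9:61798281-61798340 (both on the minus strand).
Atp5d: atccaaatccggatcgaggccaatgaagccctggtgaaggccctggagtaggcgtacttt
Atp5j2: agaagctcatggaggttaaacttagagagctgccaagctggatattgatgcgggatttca
Ndufa4: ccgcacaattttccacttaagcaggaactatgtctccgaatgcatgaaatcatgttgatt
Ndufs1: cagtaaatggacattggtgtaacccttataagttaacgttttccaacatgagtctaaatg
Atp5e: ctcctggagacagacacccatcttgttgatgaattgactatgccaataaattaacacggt

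A further set of probes is shown because the letters bear on how the values read. The Uqcr11 probes at chr7:10819606-10819665 and chr7:10819576-10819635 overlap by 30 bases (capitals). The Atp5l probes at chr8:47870078-47870137 and chr8:47870116-47870175 (minus strand) align over 22 bases, of which 21 are the same (capitals). The Cox6c probe at chr7:71474381-71474440 and the Cox6c-ps1 pseudogene probe at chr19:54398139-54398198 (minus strand) align over 46 bases, and capitals mark the 6 at which they differ.
Uqcr11, first probe: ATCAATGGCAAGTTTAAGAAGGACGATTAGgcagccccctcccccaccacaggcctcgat
Uqcr11, second probe: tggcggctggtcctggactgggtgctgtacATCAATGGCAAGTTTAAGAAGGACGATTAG
Atp5l, first probe: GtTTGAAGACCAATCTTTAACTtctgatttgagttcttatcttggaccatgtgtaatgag
Atp5l, second probe: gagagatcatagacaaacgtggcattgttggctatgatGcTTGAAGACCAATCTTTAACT
Cox6c: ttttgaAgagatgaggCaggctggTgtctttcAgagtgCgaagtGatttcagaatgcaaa
Cox6c-ps1: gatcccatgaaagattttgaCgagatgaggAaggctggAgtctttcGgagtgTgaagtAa

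Each of the 6 arrays carried 2 animals of 1 group, replicates 1 and 2 or replicates 3 and 4, 1 in each dye. Both control arrays lay on a slide of their own and the other 4 arrays on another, so in either comparison with control a slide effect and a group effect cannot be told apart. Between 71.4% and 81.5% of 42877 spots were well above background in a sample, and none was saturated. The array of ketamine replicates 1 and 2 stood apart on the first principal component, at 54.08 and 52.18 against -20.07 to -6.81 for the other 10 samples, and 3.87% of its spots, 11 of the 228 member spots among them, lay in areas rich in spots that departed from the other arrays. On the array of control replicates 3 and 4 this share was 0.219%, with 1 member spot, and it was 0 on the other 4. Of the neuron markers, 6 of the 7 on the array were well above background in all 12 samples, as were 4 of 5 cortical markers, 6 of 6 for astrocytes, 6 of 6 for oligodendrocytes and 4 of 4 for striatum. The oligodendrocyte markers were lower by a median log2 of -0.70 with betamethasone and -0.59 with betamethasone and ketamine, with mean levels of 10.75 to 11.62 in control samples, 9.89 to 10.88 and 10.20 to 11.13, and none of the 6 passed the test; their part in the members' values was not tested. In the same order the medians were 0.14 and 0.26 for neurons, -0.19 and -0.13 for cortex and -0.11 and 0.12 for astrocytes. Microglia gave 0.29 and 0.27, endothelium 0.13 and 0.29, and the 2 blood markers 0.65 and 0.39. Choroid plexus gave -0.09 and -0.26, meninges 0.06 and -0.03, striatum -0.02 and -0.02, and 1 muscle marker -0.24 and 0.04. None of these markers was called. In bulk tissue, fewer cells of a type and less RNA per cell cannot be told apart.

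Of the 84 genes, 81 could be tested across the whole table of 18670 genes. None passed limma's test at an adjusted p of 0.05 in any of the 3 comparisons. Over all genes 0.246% were called for betamethasone against control (46 genes, 0.15% higher and 0.0964% lower). For betamethasone with ketamine against control 0.0911% were called (17 genes, 0.0589% higher and 0.0321% lower), and for betamethasone with ketamine against betamethasone alone 0%. At an unadjusted p under 0.05 there were 10 members in the first comparison (12.3% of the 81, against 11.6% of all genes), with 3 higher and 7 lower where 6.74% and 4.9% of all genes were. In the second there were 14 (17.3% against 14.1%), with 7 in each direction where 9.74% and 4.35% of all genes were higher and lower. In the third there were 4 (4.94% against 3.24%), with 1 higher and 3 lower where 1.9% and 1.34% of all genes were. With both directions together the member shares sat near those over all genes in the first 2 comparisons. By direction, 8.64% of the members were lower in each of these, above the share of all genes, and 3.7% and 8.64% were higher, below it; these gaps were not tested. Without the array as a block, limma called 5 members in the first comparison and 4 in the second, beside 978 and 770 of the 18670 genes. Leaving out the array of ketamine replicates 1 and 2 gave 4 calls in the first, beside 495 over all genes. Leaving out that of replicates 3 and 4, so that ketamine rests on the array that stood apart, gave 4, 20 and 16, beside 415, 3097 and 2291 of 18647 genes. The first 2 comparisons share their control samples and the last 2 share the ketamine samples.

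Members whose groups did not overlap were also about as frequent as over all genes. With betamethasone 6 members lay wholly above the control samples and 9 wholly below, which is 18.5% of the members against 18% of all genes (10.6% above and 7.37% below). With betamethasone and ketamine 8 lay above and 5 below control, 16% against 15.8% (12.1% and 3.72%), and 1 lay above and 2 below betamethasone alone, 3.7% against 4.07% (2.75% and 1.32%). The 95% interval of the difference lay within a 2-fold change either way for 74, 72 and 74 of the 81 members in the 3 comparisons. Over all genes it did so for 16937, 16662 and 17209 of 18670, so most genes of the array met this limit too. The members' intervals had a median reach of 0.34 log2 to each side, against 0.32 over all genes.

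In complexes I, III, IV and V differences lay on both sides of 0 in each comparison, and in complex II in both comparisons that use the ketamine samples. For betamethasone against control, 21 of the 36 tested genes of complex I were higher than in control (median log2 0.05), 0 of 4 of complex II (-0.10), 4 of 7 of complex III (0.12), 6 of 14 of complex IV (-0.01) and 6 of 16 of complex V (-0.10). For betamethasone with ketamine against control the medians were -0.04, -0.08, 0.23, 0.05 and -0.09 in the same order. For betamethasone with ketamine against betamethasone alone they were -0.05, 0.03, 0.09, 0.10 and 0.06. Over all 18670 genes 56% were higher with betamethasone than in control, and the medians were 0.03, 0.07 and 0.05 in the 3 comparisons. The sign of a complex's median depended on the scaling: for betamethasone against control the medians of the 5 complexes ran from 0.29 to 0.49 with array medians in place of quantiles, from 0.02 to 0.22 with 75th percentile scaling and from -0.63 to -0.29 in the deposited value table, where the medians over all genes were 0.08, -0.19 and -0.53.

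**Figure D1:**
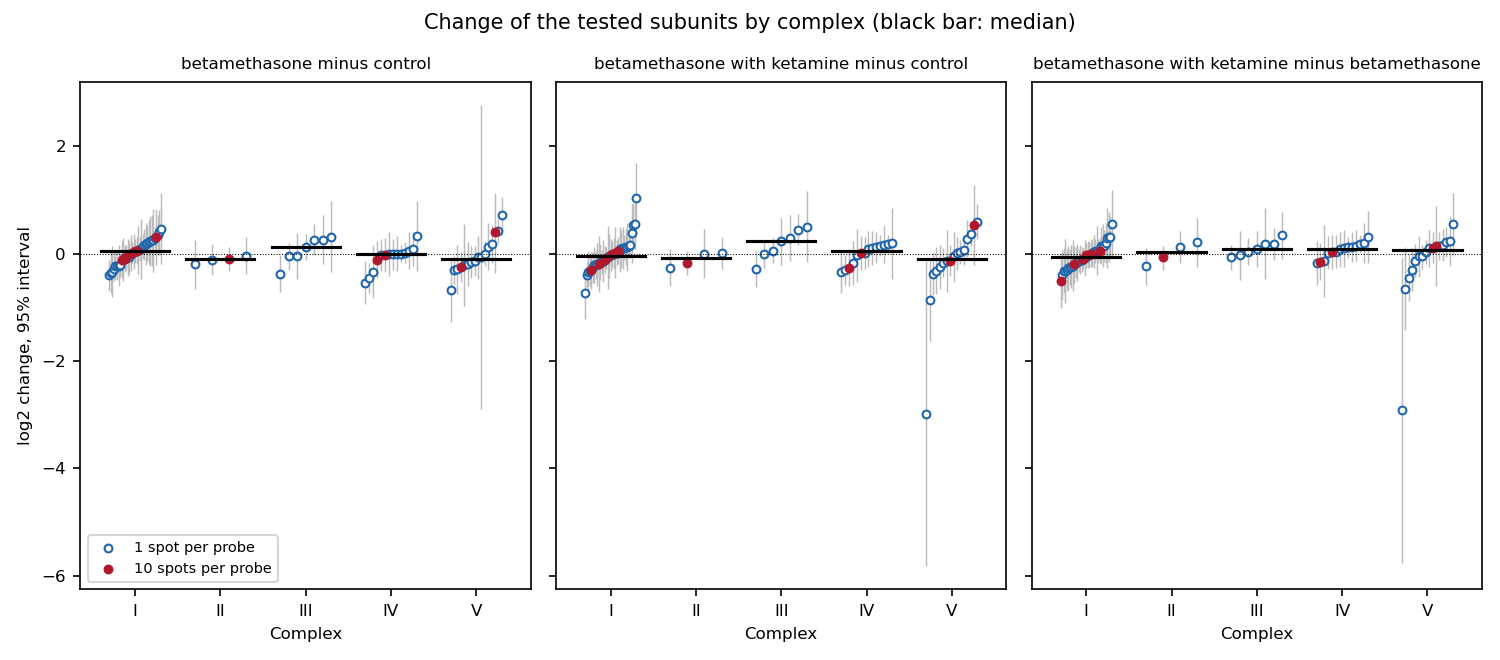
Log2 difference of the tested subunits reported here (vertical axis, with its 95% interval) by complex for the 3 comparisons, with filled red points for probes of 10 spots, open blue points for probes of 1 spot and a black bar at the median over all tested subunits of each complex. Points lie on both sides of 0 in nearly every complex, medians run from -0.10 to 0.23, and Atp5e sits far below the rest in both comparisons that use the ketamine samples.

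Medians over the subunits of a complex also differed between the arrays of 1 group. As deviations from the mean of the 12 samples, the complex I medians were 0.10, 0.09, -0.01 and -0.07 in control replicates 1 to 4, 0.06, 0.00, 0.03 and -0.04 with betamethasone, and -0.10, -0.03, -0.01 and -0.01 with betamethasone and ketamine. Those of complex II were 0.28, 0.12, -0.01 and -0.10, then 0.02, -0.07, -0.05 and 0.00, then 0.06, -0.06, 0.03 and -0.08. In both complexes the first control array gave the highest values and control replicate 4 was lowest or next to lowest, so the groups overlapped.
The complex III medians were 0.14, 0.04, -0.09 and -0.10 in control, -0.02, -0.01, -0.01 and 0.06 with betamethasone, and 0.18, 0.21, -0.02 and 0.03 with betamethasone and ketamine. Those of complex IV were 0.02, 0.23, -0.02 and -0.11, then 0.02, 0.04, -0.05 and -0.08, then 0.04, 0.14, -0.02 and 0.03. Those of complex V were 0.12, 0.14, -0.01 and -0.01, then 0.04, 0.04, -0.04 and 0.03, then 0.06, 0.06, 0.03 and 0.08. Control replicates 1 and 2 exceeded replicates 3 and 4 in all 5 complexes, by 0.14 to 0.26 on average. That step was larger than any difference between the group means of these sample medians. The median over gene differences is another measure. For complex III with betamethasone and ketamine against control it was 0.23, above that complex's control step of 0.18.

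**Figure D2:**
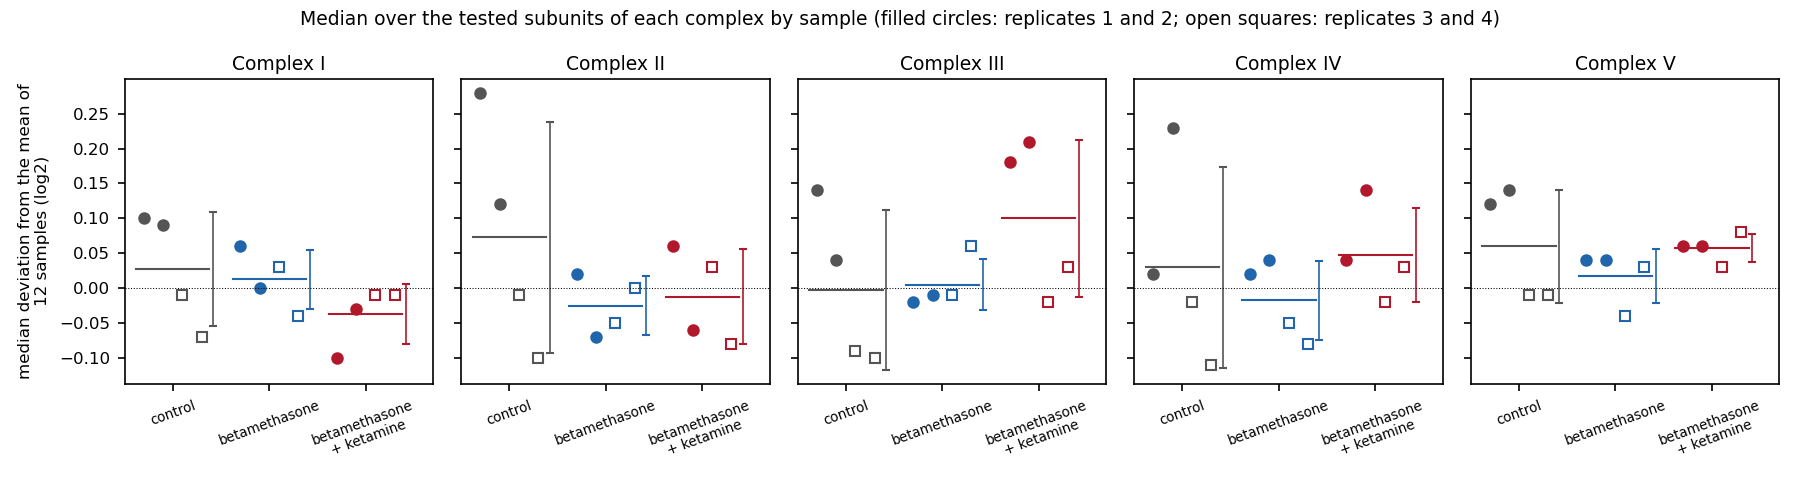
Median deviation of the tested subunits of each complex from their mean over the 12 samples (log2, vertical axis) by group, with filled circles for replicates 1 and 2, open squares for replicates 3 and 4, and a line and bar for the mean and SD of 4 samples. The control array of replicates 1 and 2 lies above that of replicates 3 and 4 in every panel, and the 3 groups overlap in each.

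Complex I takes electrons from NADH through a chain of iron-sulfur clusters held by its core subunits. Among the 7 tested nuclear core subunits the median difference was 0.17 for betamethasone against control, 0.00 for betamethasone with ketamine against control and -0.03 between the treated groups. Ndufs1, which carries iron-sulfur clusters of the electron input arm, measured 13.39, 13.67, 13.36 and 13.60 in control, 13.09, 13.26, 12.88 and 13.18 with betamethasone, and 13.43, 13.34, 13.03 and 13.20 with betamethasone and ketamine. All 4 betamethasone samples lay below all 4 controls, and the ketamine samples overlapped both. The difference for betamethasone against control was -0.40 (SE 0.13, limma adjusted p = 0.275) and for betamethasone with ketamine against control -0.25 (adjusted p = 0.409). Ndufv1, which binds NADH and flavin, differed by 0.17 (SE 0.13) and 0.00 in these comparisons, and its partner Ndufv2, read by 10 spots, by 0.05 (SE 0.10) and 0.02.

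Other core subunits lay on the opposite side of 0. Ndufs7, which holds the last iron-sulfur cluster before ubiquinone, measured 13.46, 13.17, 13.32 and 13.05 in control, 13.51, 13.60, 13.81 and 13.46 with betamethasone, and 13.83, 14.01, 13.66 and 13.66 with betamethasone and ketamine. The highest control equalled the lowest betamethasone sample at this rounding, and all ketamine samples lay above every control. Its difference was 0.35 (SE 0.17, adjusted p = 0.468) with betamethasone and 0.54 (adjusted p = 0.265) with betamethasone and ketamine. Ndufs8, a further iron-sulfur subunit, measured 10.27, 10.17 and 11.03 in 3 control samples, 11.21, 11.41, 10.47 and 10.96 with betamethasone, and 11.78, 11.83, 11.34 and 11.32 with betamethasone and ketamine. The ketamine samples lay above every control, and the betamethasone samples overlapped both groups. The difference of 1.03 (SE 0.30, 2.04-fold, adjusted p = 0.243) for betamethasone with ketamine against control was the highest of any member in that comparison, with 1 control value missing.

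Of the 29 tested genes counted as accessory subunits of complex I, 16 were higher with betamethasone than in control, with a median of 0.02. That is 55.2%, against 56% of all genes. With betamethasone and ketamine 12 were higher, with a median of -0.05, which is 41.4% against 63.8% of all genes. These gaps in share were not tested. Ndufs4, an accessory subunit needed for a stable complex and a Leigh syndrome gene, measured 12.99, 13.07, 13.10 and 13.15 in control, 13.32, 13.39, 13.33 and 13.41 with betamethasone, and 13.07, 13.12, 13.39 and 13.36 with betamethasone and ketamine. Betamethasone samples lay above all controls, while the ketamine samples split by array, the first pair near control and the second near betamethasone. The difference with betamethasone was 0.29 (SE 0.10, adjusted p = 0.282), but a second Ndufs4 probe gave -0.25. Ndufb7, a membrane arm subunit on the intermembrane side, measured 13.99, 14.08, 14.02 and 14.21 in control, 13.80, 13.74, 13.82 and 13.82 with betamethasone, and 13.69, 13.56, 13.73 and 13.76 with betamethasone and ketamine. Both treated groups lay below every control, at -0.28 (SE 0.10, adjusted p = 0.329) and -0.39 (adjusted p = 0.204).

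Ndufb10, a further membrane arm subunit, measured 15.13, 15.35, 15.26 and 15.11 in control, 14.98, 14.79, 14.92 and 14.81 with betamethasone, and 14.07, 14.05, 14.91 and 14.88 with betamethasone and ketamine. All treated samples lay below control, and ketamine replicates 1 and 2 lay well below replicates 3 and 4. Its differences from control were -0.34 (SE 0.21, adjusted p = 0.582) and -0.73 (adjusted p = 0.235), against 0.17 and 0.26 by its other probe. Further members with an unadjusted p under 0.05 for betamethasone with ketamine against control were the accessory subunits Ndufa9 and Ndufs5. Ndufa9 differed by 0.55 (limma adjusted p = 0.323), and by 0.23 without the array of ketamine replicates 1 and 2. Those replicates measured 13.11 and 12.77, beside 12.39 and 12.23 in replicates 3 and 4. Ndufs5 differed by -0.33 (limma adjusted p = 0.313), against 0.17 by its other probe. Ndufa1 was not tested because ketamine samples gave only 2 values, 14.31 and 14.56, beside 14.44, 14.93, 14.46 and 14.80 in control and 14.47, 14.54 and 13.37 with betamethasone.

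**Figure D3:**
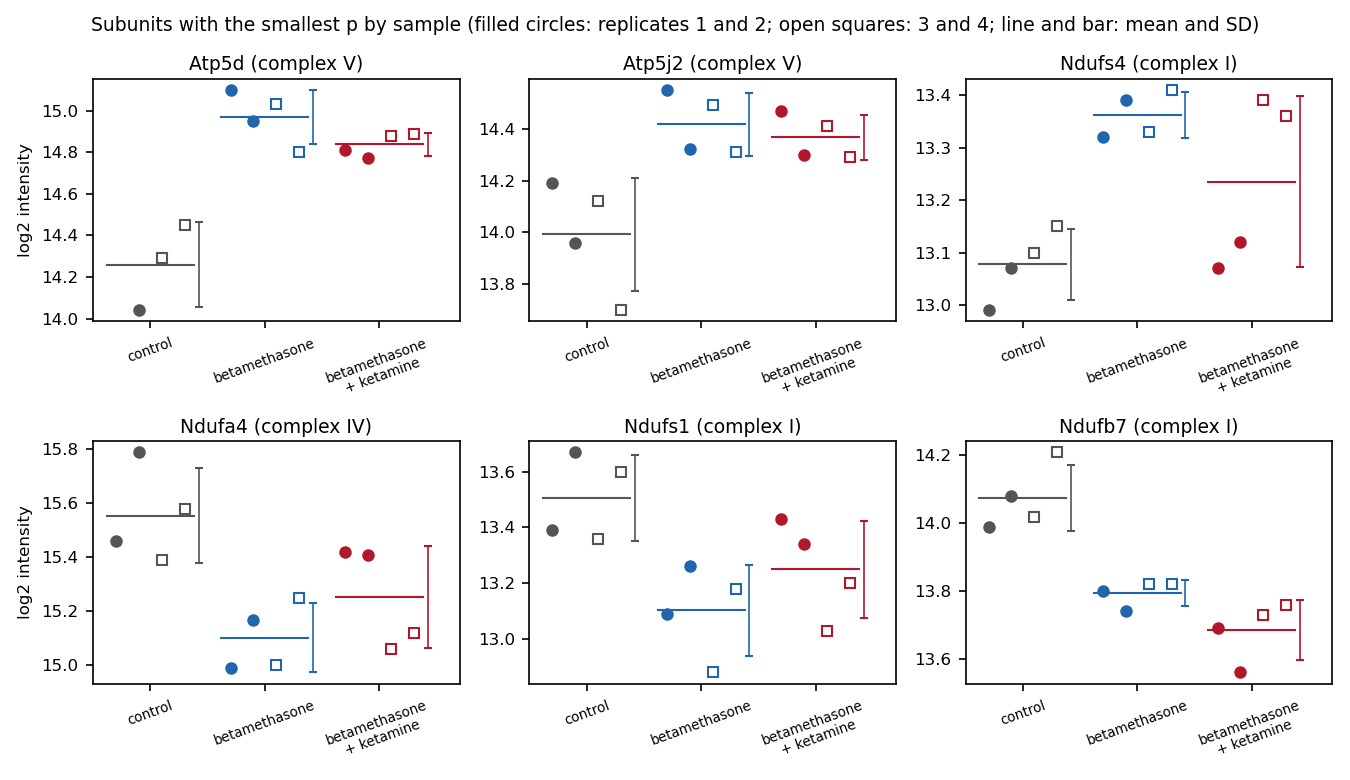
Log2 intensity (vertical axis) in each sample for the members with small unadjusted p-values, by group, with filled circles for replicates 1 and 2, open squares for replicates 3 and 4, and a line and bar for the mean and SD of the samples measured. For Atp5d, Atp5j2 and Ndufs4 all betamethasone samples lie above control and for Ndufa4, Ndufs1 and Ndufb7 all lie below, while the ketamine samples of Ndufs4 and Ndufa4 split by array.

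Complex II oxidises succinate and is the only complex here built wholly from nuclear genes. The flavin-binding catalytic subunit Sdha measured 13.22, 13.02, 13.24 and 13.66 in control, 12.94, 13.03, 13.09 and 13.27 with betamethasone, and 13.61, 13.40, 13.04 and 13.11 with betamethasone and ketamine. The 3 groups overlapped, and the differences were -0.20 (SE 0.21, adjusted p = 0.764) with betamethasone and 0.00 with betamethasone and ketamine. The iron-sulfur subunit Sdhb measured 14.02, 13.86, 13.67 and 13.67 in control, 13.80, 13.77, 13.77 and 13.73 with betamethasone, and 13.28, 13.22, 13.83 and 13.82 with betamethasone and ketamine. Its differences were -0.04 (SE 0.16) and -0.27 (adjusted p = 0.449) against control and -0.23 (adjusted p = 0.906) between the treated groups. Only ketamine replicates 1 and 2 lay below the other samples of Sdhb.
Of the membrane anchors, Sdhc differed from control by -0.11 (SE 0.13) and 0.02. Sdhd, read by 10 spots, measured 13.95, 13.69, 13.68 and 13.42 in control, 13.64, 13.51, 13.63 and 13.57 with betamethasone, and 13.56, 13.40, 13.63 and 13.47 with betamethasone and ketamine. All treated samples lay inside or just under the control range, with differences of -0.10 (SE 0.10, adjusted p = 0.768) and -0.17 (adjusted p = 0.464).

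Complex III holds a Rieske iron-sulfur protein, core proteins and small accessory subunits. The small ubiquinone-binding subunit Uqcrb measured 15.04, 15.37, 15 and 14.92 in control, 14.75, 14.63, 14.85 and 14.61 with betamethasone, and 14.82, 14.88, 14.76 and 14.76 with betamethasone and ketamine. Both treated groups lay below every control. The differences were -0.37 (SE 0.15, adjusted p = 0.388) and -0.28 (adjusted p = 0.426), against -0.09 and -0.01 by a second probe, a dim one read by 10 spots. The accessory subunit Uqcrq measured 8.07, 8.30, 8.48 and 8.46 in control, 8.58, 8.60, 8.56 and 8.60 with betamethasone, and 8.91, 9, 8.55 and 8.64 with betamethasone and ketamine. The Uqcrq probe was dim too. With it both treated groups lay above control, and ketamine replicates 1 and 2 highest. Its differences were 0.26 (SE 0.13, adjusted p = 0.470) and 0.45 (adjusted p = 0.242).

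The core protein Uqcrc2 measured 14.28, 14.06, 13.12 and 12.90 in control, 13.81, 13.99, 13.83 and 13.99 with betamethasone, and 14.39, 14.07, 14.02 and 13.89 with betamethasone and ketamine. Control replicates 3 and 4 were the 2 lowest samples, and their spot lay in the departing area of that array. The differences of 0.32 (SE 0.30, adjusted p = 0.744) and 0.50 (adjusted p = 0.460) became -0.26 and -0.08 once those areas were left out, with 2 control samples remaining. The other core protein Uqcrc1 differed from control by 0.26 (SE 0.21) and 0.23. The Rieske protein Uqcrfs1 measured 13.34, 13.39, 13.29 and 13.79 in control, 13.24, 13.52, 13.27 and 13.60 with betamethasone, and 14.06, 13.98, 13.36 and 13.59 with betamethasone and ketamine. Ketamine replicates 1 and 2 were above all other samples, and the difference between the treated groups was 0.34 (SE 0.19, adjusted p = 0.906). The hinge protein Uqcrh differed from control by 0.12 and 0.06, and Uqcr11 by -0.05 and -0.01.

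Complex IV has mitochondrially encoded catalytic subunits surrounded by nuclear ones, several of which come as tissue isoforms. Ndufa4 measured 15.46, 15.79, 15.39 and 15.58 in control, 14.99, 15.17, 15 and 15.25 with betamethasone, and 15.42, 15.41, 15.06 and 15.12 with betamethasone and ketamine. Every betamethasone sample lay below every control, ketamine replicates 1 and 2 lay inside the control range and replicates 3 and 4 inside the betamethasone range. The differences were -0.45 (SE 0.13, adjusted p = 0.221), -0.30 (adjusted p = 0.339) and 0.15 between the treated groups. Cox4i2, the isoform of subunit 4 known from lung and low oxygen, measured 13.23, 12.88 and 13.24 in 3 control samples, 12.65, 12.70, 12.40 and 12.42 with betamethasone, and 12.78, 13.12, 12.37 and 12.71 with betamethasone and ketamine. Betamethasone samples lay below control and ketamine samples overlapped both, with differences of -0.54 (SE 0.18, adjusted p = 0.291) and -0.34 (adjusted p = 0.419).

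The common isoform Cox4i1 was not tested because ketamine samples gave only 2 values, 16.29 and 16.74. They stand beside 16.61, 16.55 and 16.77 in control and 16.78, 16.76, 16.79 and 16.67 with betamethasone. Of the heart and muscle isoforms, Cox6a2 differed from control by 0.33 (SE 0.30) and 0.20. Cox8b, also a heart and muscle form, was dim: it measured 7.61, 7.67, 7.59 and 7.57 in control, 7.65, 7.60, 7.62 and 7.60 with betamethasone, and 7.84, 7.84, 7.79 and 7.74 with betamethasone and ketamine. All 4 ketamine samples lay above the other 8. The differences were 0.00 (SE 0.08), 0.19 (adjusted p = 0.325) and 0.18 between the treated groups (adjusted p = 0.906). The testis isoform Cox6b2 differed from control by 0.06 and 0.17, and Cox8c, at 7.11 to 7.26, was not well above background in any sample.
The widely expressed subunits lay close to 0. Cox5a differed from control by -0.01 (SE 0.13) and 0.12, Cox5b by 0.00 (SE 0.15) and 0.09, Cox6a1 by 0.09 (SE 0.14) and 0.10, and Cox8a, read by 10 spots, by -0.02 (SE 0.14) and 0.01. Cox7a2 differed by -0.01 and -0.18, and Cox7b, also read by 10 spots, by -0.11 and -0.26. Cox7a2l, which takes part in supercomplexes, measured 14.69, 14.82, 14.67 and 14.45 in control, 14.70, 14.78, 13.79 and 14.02 with betamethasone, and 14.68, 14.72, 14.60 and 14.53 with betamethasone and ketamine. Betamethasone replicates 3 and 4 alone were low, and the difference between the treated groups was 0.31 (SE 0.22, adjusted p = 0.906).

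Complex V has a catalytic F1 head, a stalk and a membrane part with a ring of c subunits. Atp5d, the delta subunit of the central stalk of F1, had the smallest p of any member. It measured 14.04, 14.29 and 14.45 in 3 control samples, 15.10, 14.95, 15.03 and 14.80 with betamethasone, and 14.81, 14.77, 14.88 and 14.89 with betamethasone and ketamine. All 8 treated samples lay above all 3 controls and the treated groups overlapped. The difference was 0.73 (SE 0.15, 1.66-fold, 95% interval 0.41 to 1.06, limma adjusted p = 0.0956) with betamethasone, 0.60 (1.52-fold, adjusted p = 0.181) with betamethasone and ketamine, and -0.13 between the treated groups. The call depended on the model: Atp5d passed the threshold without the array as a block (adjusted p = 0.0104), without control replicate 4 (0.0387), and without the array of ketamine replicates 1 and 2 (0.0392) or 3 and 4 (0.0421). Over all genes these settings called 978, 49, 495 and 415. In the other 24 of 28 settings Atp5d did not pass, at a limma adjusted p of up to 0.82. Its 1 probe and its missing control value limit this result.

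Atp5j2, the f subunit of the membrane part, measured 14.19, 13.96, 14.12 and 13.70 in control, 14.55, 14.32, 14.49 and 14.31 with betamethasone, and 14.47, 14.30, 14.41 and 14.29 with betamethasone and ketamine. Both treated groups lay above every control. The differences were 0.42 (SE 0.10, adjusted p = 0.142) and 0.37 (adjusted p = 0.213). In the deposited value table they were -0.08 and -0.12, where the medians over all genes were -0.53 and -0.44. Its other probe measured 15.90 and 16.04 in the 2 control samples with a value, 16.09, 16.08, 16.05 and 16.07 with betamethasone, and 15.76, 16.01, 16 and 16.23 with betamethasone and ketamine. That probe was too sparse in control to be tested. Atp5i, the e subunit of the membrane part, measured 16.46, 17.13, 16.62 and 16.78 in control, 16.41, 16.78, 15.23 and 15.84 with betamethasone, and 16.45, 16.83, 16.40 and 16.77 with betamethasone and ketamine. Betamethasone replicates 3 and 4 alone were low, for a difference of -0.68 (SE 0.27, adjusted p = 0.360) with betamethasone. Atp5hl1, a copy of the stalk subunit d, differed by -0.31 (SE 0.12, adjusted p = 0.350), and Atp5h itself by -0.15.

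Of the catalytic F1 subunits, Atp5b, the beta subunit read by 10 spots, measured 13.12, 12.40, 13.09 and 13.50 in control, 13.15, 13.63, 13.23 and 13.69 with betamethasone, and 13.73, 13.53, 13.52 and 13.49 with betamethasone and ketamine. The groups overlapped and the differences were 0.40 (SE 0.34, adjusted p = 0.706) and 0.54 (adjusted p = 0.480). The gamma subunit Atp5c1 differed by 0.18 (SE 0.16) and 0.28. Of the c-ring genes, which encode the same mature protein, Atp5g1 differed from control by 0.00 and 0.03. Atp5g3 differed by -0.14 and 0.07, against -0.92 and 0.40 by its other probe. Atp5g2 measured 16.30, 16.20, 16.20 and 16.15 with betamethasone and 15.30, 15.45, 16.06 and 16.24 with betamethasone and ketamine. Its difference between the treated groups of -0.45 (SE 0.20, adjusted p = 0.906) came with ketamine replicates 1 and 2 alone low, and its other probe gave 0.11.

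The largest difference of any subunit, that of Atp5e, came with low values on the array of ketamine replicates 1 and 2 alone. Atp5e, the epsilon subunit of F1, measured 16.44, 17.05, 16.88 and 17.01 in control, 16.71, 16.99, 16.58 and 16.86 with betamethasone, and 10.85, 10.95, 16.73 and 16.93 with betamethasone and ketamine. Its difference was -2.98 (SE 1.29, adjusted p = 0.339), and -0.02 with the departing areas left out. Replicates 3 and 4 lay with the other groups.
The catalytic alpha subunit Atp5a1 measured 16.89, 17.24, 16.83 and 16.73 in control, 16.70, 16.79, 16.50 and 16.87 with betamethasone, and 15.41, 15.29, 16.69 and 16.86 with betamethasone and ketamine. Its difference from control of -0.86 (SE 0.35, adjusted p = 0.325) became -0.15. The core complex I subunit Ndufs3, with 3 of its 10 spots in the areas, measured 13.36, 13.06, 13.02 and 12.98 in control, 13.48, 13.40, 13.38 and 13.39 with betamethasone, and 12.50, 12.35, 13.42 and 13.37 with betamethasone and ketamine. Its difference of -0.50 (SE 0.24, adjusted p = 0.906) between the treated groups became -0.11. Spots of 7 tested members lay in these areas, those of Ndufb8, Ndufv2 and Cox7b among them.

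The step between the ketamine arrays was wider than those areas. It exceeded 0.5 log2 in 19 of the 81 members, with replicates 1 and 2 lower in 13 and higher in 6, and only 4 of the 19 had spots in the areas. The step was not counted over all genes, so these counts do not set the members apart. Against the betamethasone samples, ketamine replicates 3 and 4 alone differed by a median of 0.00 over the members, with a range of -0.27 to 0.93. With the array of replicates 1 and 2 left out, limma called none of the members between the treated groups and 26 genes over the whole table, the 1 array left in the ketamine group being assumed to vary like the others.

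**Figure D4:**
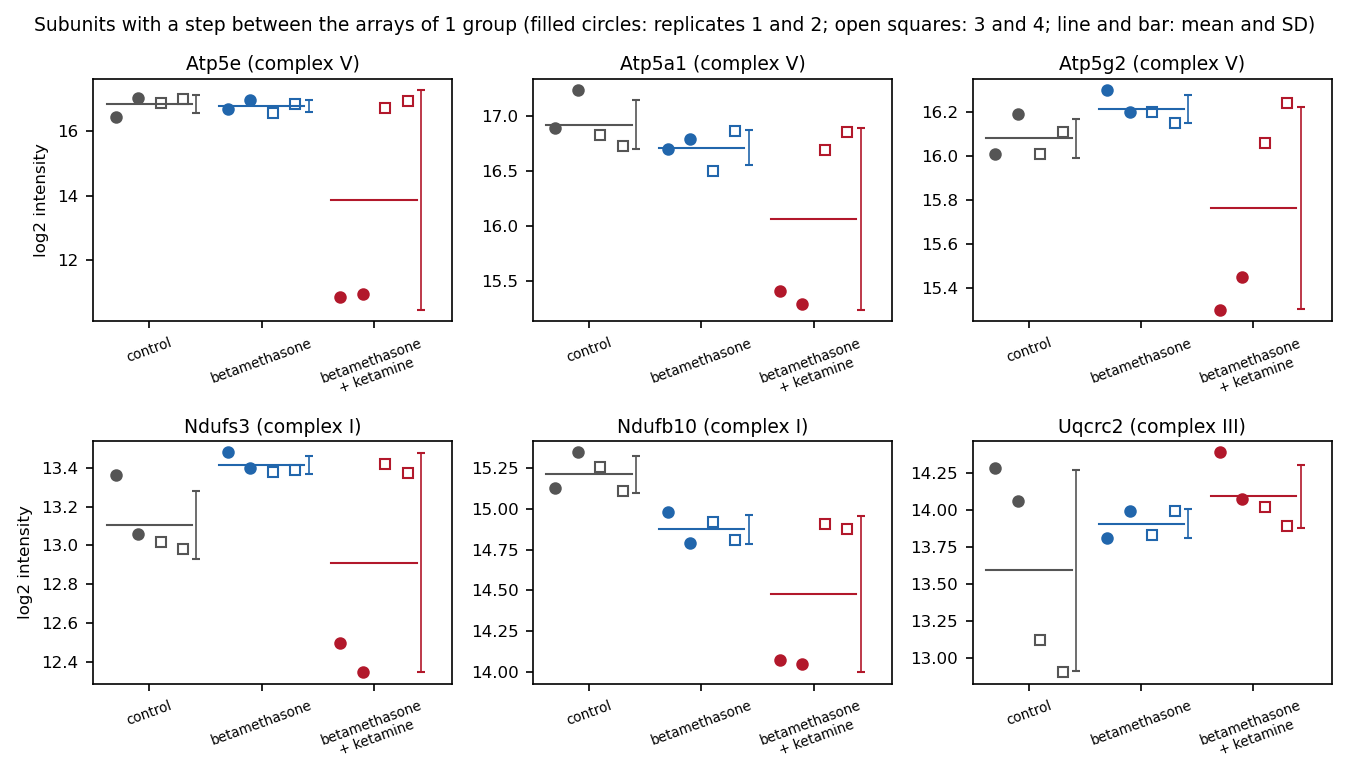
Log2 intensity (vertical axis) in each sample for members with a step between the arrays of 1 group, with filled circles for replicates 1 and 2, open squares for replicates 3 and 4, and a line and bar for the mean and SD of 4 samples. Ketamine replicates 1 and 2 lie far below all other samples in Atp5e (10.85 and 10.95) and Atp5a1 (15.41 and 15.29), and control replicates 3 and 4 are lowest in Uqcrc2.

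Depth of measurement differed by probe. For the 12 tested members read by 10 spots, the median SE of the betamethasone difference was 0.123 and no difference from control exceeded 0.40 with betamethasone or 0.54 with betamethasone and ketamine. For the 69 read by 1 spot the median SE was 0.158. The differences of these reached 1.08 in size with betamethasone, for the pseudogene Cox6c-ps1, whose betamethasone replicates 3 and 4 measured 9.03 and 10.52 beside 12.01 and 11.84 in replicates 1 and 2.

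Where a gene had several tested probes, they often differed. There were 19 pairs of probes in 15 genes. Their signs were opposite in 11 pairs for betamethasone against control and in 10 for betamethasone with ketamine against control. Between the treated groups 13 pairs did not share a sign, including Ndufv3 pairs with a value of 0.0 at this rounding. Members of a pair differed by a median of 0.29, 0.32 and 0.24 log2. The 2 Uqcr11 probes that share the bases in capitals above gave 0.01 and 0.86 with betamethasone. The second of them measured 13.92, 14.10, 14.90 and 14.89 in control, so control replicates 1 and 2 were low in it, while the first lay between 15.77 and 15.89. The Atp5l probes, which align over 22 bases, gave -0.29 and 0.30. These values limit any statement on a gene read by 1 probe.

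**Figure D5:**
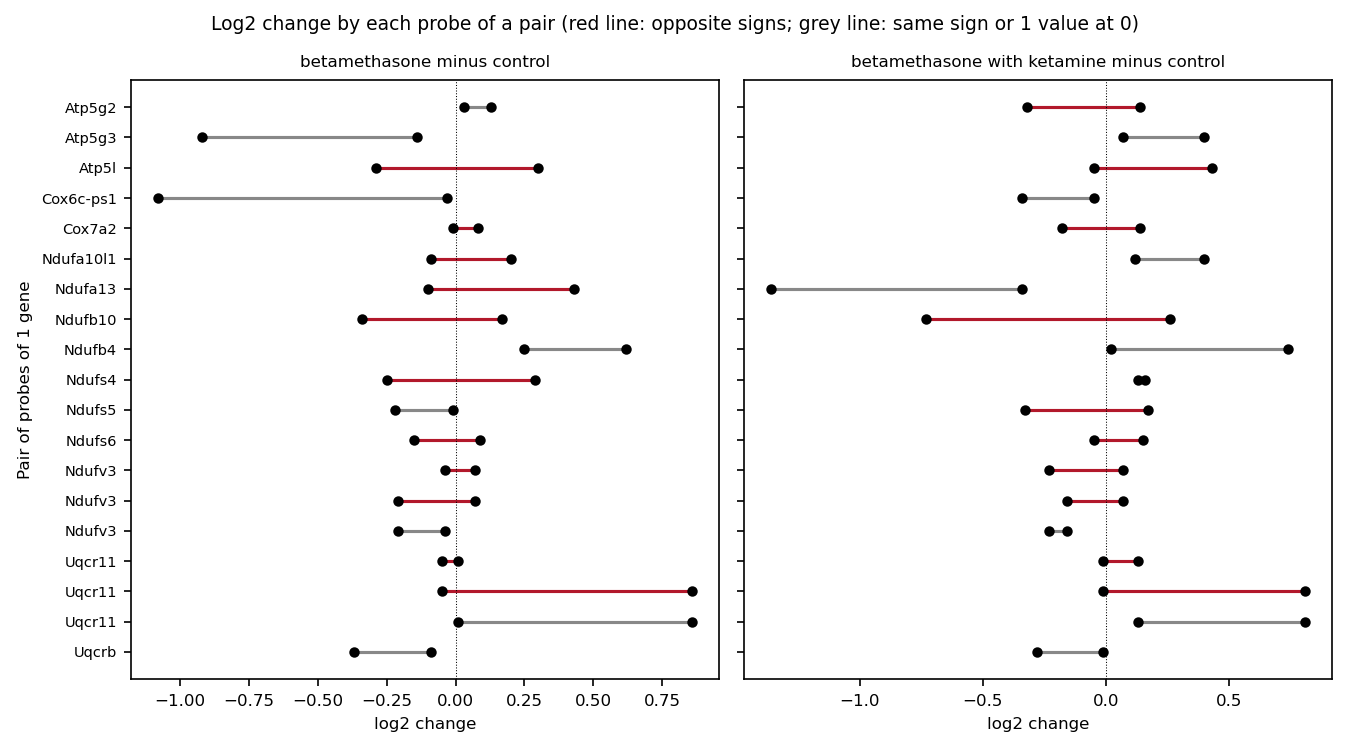
Log2 difference (horizontal axis) given by each probe of a pair of 1 gene (vertical axis) for betamethasone and for betamethasone with ketamine against control, joined by a red line where the signs are opposite and a grey line otherwise. Red lines join 11 of 19 pairs in the first panel and 10 in the second, and the widest pairs are those of Cox6c-ps1 in the first and Ndufa13 in the second.

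Promoter sequence played no part in the naming rule. Promoters from 250 bases before to 50 after the start were matched for 68 of the subunit genes in RefSeq's table for build GRCr8. They were set against 33469 promoters in all, and both strands were searched. A subunit gene counted where any promoter under its name held the word, while the share over all counted each promoter singly. A gene with several promoters therefore had more ways to count. CCGGAAG, a word of the ETS family that includes GABP, was in 20 of the 68 (29.4%, against 8.75% of all promoters), those of Ndufs1, Sdhb, Uqcrq and Atp5a1 among them. AAGATGGC, a YY1 word, was in 15 (22.1% against 3.17%), including those of Atp5j2, Ndufs4 and Ndufs7. CGCATGCG, the core of the palindrome of nuclear respiratory factor 1, was in 7 (10.3% against 1.66%), those of Uqcrc1, Ndufa11, Atp5g2, Atp5i, Atp5j, Atp5l and Atp5o. A longer word of the same palindrome, searched first, was in 4 (5.88% against 0.852%). AAGGTCA, of the estrogen-related receptors, was in 11 (16.2% against 4.61%). The ETS word ends in the letters with which the YY1 word begins, so the 2 can overlap. The median GC content was 56.0% against 51.7%, and a word in this window is a description, not a binding site.

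Genes around the chain showed the same absence of calls. The 13 probes that the files place on the mitochondrial chromosome, whose genome encodes the remaining subunits, carry only transcript identifiers there. Their median difference was 0.09 with betamethasone and 0.03 with betamethasone and ketamine, with none called. ENSRNOT00000050156 was lowest at -1.02 with betamethasone (SE 0.19, limma adjusted p = 0.0774) and ENSRNOT00000040993 highest at 1.31 (SE 0.52, adjusted p = 0.373).
Of 48 listed assembly factors 41 were tested, none was called, and the medians were 0.06 and 0.07. Among them 5 were higher and 1 lower at an unadjusted p under 0.05 with betamethasone, and 7 and 1 with betamethasone and ketamine, where 6.74% and 4.9%, then 9.74% and 4.35%, of all genes were. Cox16, an assembly factor of complex IV, differed by -0.51 with betamethasone (adjusted p = 0.160), and Timmdc1, of complex I, by 0.64 with betamethasone and ketamine (adjusted p = 0.183). Of 14 tested electron carriers and exchangers, 17 biogenesis regulators and 13 enzymes of the tricarboxylic acid cycle none was called either, with medians of 0.08, 0.00 and 0.03 for betamethasone and 0.13, 0.01 and 0.20 for betamethasone with ketamine against control.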

How the data were processed

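Total RNA of each animal was labelled with 1 of 2 dyes and hybridised to Agilent 2-colour rat arrays, 2 animals of the same group per array, and each dye channel was treated as a sample. The deposited scanner files hold the spot intensity and local background as extracted with Agilent Feature Extraction, versions 11.5.1.1 (control slide) and 11.0.1.1 (the other slide) per the file headers; the submitters' processing notes name version 10.7.3.1. The headers give build rn4. The deposited value table holds a ratio per sample with a column median of 1. Its columns for control 1 and 2 hold the scanner data of control 3 and 4 and the reverse, with a spread of 0 in the log2 ratio, and it was used only as an alternative.

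Mean signals were background-corrected (normexp, offset 50), normalised by loess within and Aquantile between arrays (control spots and outlier spots without weight), and spots were averaged per probe. Probes that 3 or more of the 4 animals of any group showed well above background were kept, and a gene was read by its brightest kept probe with at least 3 values in each group: 21756 probes and 18670 genes. Probes took their gene names by accession (18809), symbol (2533), synonym (407) or the file's own name (8618). Differences on the log2 scale, made here from the deposited intensities, were tested 2-sided in 1 fit of all 12 samples with limma 3.58.1 (R 4.3.3, statmod 1.5.0), with dye as a term and array as a random block (correlation 0.563). P-values were adjusted by Benjamini-Hochberg over all tested genes of a comparison. The fit was first tested on simulated data. The number of arrays, 2 per group, limits the precision.

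Named genes were any member past the threshold (none), the 2 members with the smallest p in each complex and comparison, and a set list of catalytic, core and isoform genes. Other members named were chosen after their values were seen: Ndufs7, Ndufs8, Ndufa9, Ndufs5, Ndufa1, Ndufv2, Sdhc, Uqcrc2, Uqcrh, Uqcr11, Cox8c, Atp5i, Atp5hl1, Atp5h, Atp5c1, Atp5g1, Atp5g3 and Atp5l. The listed Ndufa4l2, Cox6b1, Cox7a1 and Cox7b2 had no probe under these names. The result of a further member is not reported here. The members and lists were chosen with earlier results of these data known. Replicate numbers of the groups did not pair the samples. Alternatives covered background correction, scaling, the value table, the probe filter and choice, the blocks, the departing areas, and each replicate and array left out.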

Additional observations from a re-analysis of the deposited data

Results flagged for a closer look

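In 108 groups of 4 samples, 5 held a sample set far from the other 3 (a gap, as a share of the group's range, above Dixon's 95% critical value), where chance gives about 1 in 20. Cox5a had its lowest control sample at 15.04, with the nearest at 15.24, and its highest sample with betamethasone and ketamine at 15.44, with the nearest at 15.27. Cox6b2 had its lowest sample with betamethasone and ketamine at 14.53, with the nearest at 14.64. Cox8a had its lowest sample of that group at 16.59, with the nearest at 16.75. The median deviation of complex III had its highest betamethasone sample at 0.06, with the nearest at -0.01. Atp5e was not among them because ketamine replicates 1 and 2 were low together.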

How the results depend on the processing

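No member passed under the processed signals, array medians, 75th percentile scaling, no filter, every probe, the mean over probes, array means, or with the departing areas left out. Without the array block 5 members passed with betamethasone (Atp5d, Atp5j2, Ndufa4, Ndufb7 and Ndufs1) and 4 with betamethasone and ketamine against control (Atp5d, Atp5j2, Ndufb7 and Ndufs7), while 978 and 770 of all genes did. With the deposited values 26 members passed in the first comparison and 27 in the second, beside 5994 and 4199 of all genes. Leaving out replicates or arrays, the members called ranged from 0 to 4 with betamethasone and from 0 to 20 with betamethasone and ketamine. Between the treated groups they ranged from 0 to 16. The 20 and the 16 came without the array of ketamine replicates 3 and 4, and Atp5d passed without control replicate 4. Uqcrc2 passed at 1.08 (limma adjusted p = 0.0447) with betamethasone and ketamine, without the array of control replicates 1 and 2. Its control then rested on replicates 3 and 4, whose spot lay in a departing area. With those areas left out, and both control arrays in the fit, this difference was -0.08. Over all genes the 46 and 17 calls became 125 and 97 with the processed signals, 79 and 39 without the filter, 0 and 0 with array medians and with the 75th percentile, 3 and 1 with array means, and 64 and 28 without the departing areas. Leaving out arrays, the calls over all genes ranged from 15 to 495, from 3 to 3097 and from 0 to 2291 in the 3 comparisons. Leaving out single replicates gave 3 calls (without betamethasone replicate 2) to 73 (without ketamine replicate 1) over all genes with betamethasone. With the replicate number as a block, 28, 14 and 0 genes and 0 members were called, and no member's call changed; the numbers did not pair the samples, with correlations of same-numbered samples from -0.066 to 0.093.

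Complex medians moved with the scaling. For complexes I to V, betamethasone against control gave 0.47, 0.29, 0.49, 0.49 and 0.46 with array medians, 0.21, 0.02, 0.22, 0.22 and 0.19 with the 75th percentile, and -0.46, -0.63, -0.29, -0.43 and -0.47 in the value table. Betamethasone with ketamine against control gave -0.17, -0.24 and 0.07 for complexes I to III with array medians, 0.17 and 0.04 for IV and V with the 75th percentile, and -0.58, -0.60, -0.28, -0.35 and -0.46 in the value table. Over all genes array medians, the 75th percentile and the value table gave 0.02, 0.17 and -0.44. Between the treated groups, array medians gave -0.63, -0.53, -0.49, -0.48 and -0.52, and the 75th percentile -0.21, -0.11, -0.07, -0.06 and -0.10. Over all genes these settings gave -0.10 and 0.32 between the treated groups. The complex III median with betamethasone was 0.26 with the mean over probes and -0.05 without the departing areas; without these areas the medians with betamethasone and ketamine were 0.06 for complex III and -0.04 for complex V, and with the processed signals -0.05 for complex IV. Leaving out replicates or arrays, the medians with betamethasone ranged from -0.02 to 0.08 (complex I), from -0.20 to 0.06 (II) and from -0.16 to -0.05 (V). With betamethasone and ketamine they ranged from -0.16 to 0.01 (I), -0.25 to -0.06 (II), 0.06 to 0.36 (III), -0.07 to 0.10 (IV) and -0.18 to 0.01 (V).

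Of 75 single-member results, 55 had values of both signs over their alternatives. Of these, 15 were among the 29 results whose adjusted p was also followed over the alternatives. The causes were not tested. Medians over all genes in the value table were -0.53 with betamethasone and -0.44 with betamethasone and ketamine against control. With betamethasone the value table gave Ndufs4 -0.22, Uqcrq -0.26 and Atp5j2 -0.08; array medians gave Sdha 0.19, Sdhd 0.31, Uqcrb 0.10 and Ndufa4 0.06; the 75th percentile gave Sdhd 0.04 and Uqcrq -0.10; leaving samples out, Sdhd ranged from -0.23 to 0.04. With betamethasone and ketamine against control Sdhb was 0.07 with the processed signals and -0.55 to 0.02 with samples left out, and the value table gave Cox8b -0.03 and Atp5j2 -0.12. Between the treated groups Atp5e was 0.04 without the departing areas, the processed signals gave Sdhb 0.09 and Sdha -0.06, and array medians gave Sdha -0.35, Uqcrfs1 -0.22 and Cox7a2l -0.27. With samples left out these ranged from -5.88 to 0.04 for Atp5e, -0.52 to 0.05 for Sdhb, -0.01 to 0.42 for Sdha and -0.11 to 0.73 for Cox7a2l. In both comparisons with control Atp5d kept its sign in every setting run.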
